A study of Drosophila melanogaster with 15 samples.

Results

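H4K16Ac, histone H4 acetylated at lysine 16, was measured by ChIP-seq in mushroom body (MB) nuclei of naive flies and of flies sampled 1 day after spaced training, with 3 libraries in each group. The result described here is the list of regions that the authors gave as increased after training. The deposited list carries an unadjusted p headed t-test rather than the adjusted p of the study's methods, and the regions called by that test are not analysed here. It holds 1428 regions, all of them taken, out of 3317 regions in the increased lists of both histone marks of the series. The other 1889 regions belong to H3K9Ac, the mark measured in the same way beside it. The 15 samples of the series also hold 6 H3K9Ac libraries, single CREB and CRTC libraries from trained flies and an input library from naive flies.

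Flies of both groups were of the strain labelled CS10, w(CS10) in the methods, and carried FLAG-KASH, a tag for the nuclear envelope, under the MBp-LexA driver. Nuclei were pulled out of head homogenates by this tag. The driver is strong in the Kenyon cells of the α/β and γ lobes and weak in those of the α'/β' lobe, so the α'/β' cells are under-represented in both groups. In spaced training an odor is paired with electric shocks in repeated sessions with rest between them, whereas naive flies had no training. Flies of both sexes were pooled, and the labels give no age. The labels do not say whether the libraries of a group came from separate collections of flies, although the study's methods call them biological replicates. The read numbers published with the study stand in nearly the same ratio between replicates 1, 2 and 3 in both H4K16Ac groups. Whether the spread between libraries is partly technical was not tested.

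The MBs are paired neuropils of the insect brain built from Kenyon cells, and they store olfactory memory. Acetylation of H4K16 removes a positive charge from the histone tail and loosens the packing of nucleosomes. In flies the acetyltransferase MOF places it at active promoters and, as part of the dosage compensation complex, along the genes of the single male X. Tip60, another acetyltransferase, can also place it, and deacetylases remove it. The mark is generally read as a sign of open, transcribed chromatin.

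For each listed region the authors gave a mean ratio of spaced-trained over naive flies, called the fold here, with its SD. How the mean and SD were computed is not stated, so the SD cannot be read as a known spread between flies. The tables used here hold no values of single libraries. The read numbers published with the study entered no value given here. Nothing was retested, and the folds are quoted as the authors' means. Since the fold chose the regions, folds are a description only. The background is the authors' table of 24152 H4K16Ac peaks, which reduced to 9333 windows of 400 bp. These do not overlap, except for 7 pairs of neighbouring listed regions. Of these windows 15.3% were listed. The peaks and listed regions named 6068 genes, of which 1319 (21.7%) had a listed region. Of the 6068 genes, 272 kept no window of their own and count as not listed by construction. All shares below are to be read against these values, and their 95% Wilson intervals cover counting error over regions or genes only, not differences between flies.

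The peak table was checked against cell type markers. Of 30 Kenyon cell genes known to the annotation, 21 had an H4K16Ac peak, among them the transcription factors ey, toy and Mef2, the cell adhesion gene Fas2 and the adenylate cyclase rut, although dac had none. Among glial markers 6 of 16 had a peak, namely loco, moody, Gli, Gs2, Indy and nrv2. The glial genes repo, gcm, Eaat1 and alrm had none. Among photoreceptor, fat body and muscle markers 6 of 39 had a peak. The yolk protein genes Yp1, Yp2 and Yp3 and the muscle genes Mhc, Mlc2, Act88F and up had none. The opsin genes ninaE and Rh5 and the phospholipase gene norpA had one. What share of all annotated genes had a peak was not computed, so these counts do not measure the purity of the nuclei. Of the 21 Kenyon cell genes with a peak, 6 were in the increased list (28.6%, against 21.7% of all genes). In the same list, the glial gene loco had a fold of 1.27 ± 0.04 and the cytochrome gene Cyp6a2 one of 1.37 ± 0.19. These were the only listed members of the glial markers and of the photoreceptor, fat body and muscle markers. No per-group level is given for them, so their part in the results was not tested.

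The increases were small. The fold ran from 1.2, the limit of the list, through a median of 1.31 to 2.09, with quartiles of 1.25 and 1.39, and 134 of 1428 regions (9.38%) reached 1.5. The SD had a median of 0.14 and exceeded 0.2 in 336 regions (23.5%). The fold less its SD did not fall below 1 in any listed region. The listed p was at most 0.05, so the selection itself may have kept out regions with a large SD for their fold. That no region fell below 1 is therefore no separate evidence. At the lower edge, 44 regions stood at 1.2. Regions below that fold are not in the list, and decreased regions are not analysed here.

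The 12 largest folds lay between 1.79 and 2.09. The largest was at Sox102F, a SoxD transcription factor gene, in a region of 400 bp on chromosome 4 (dm3, 855042 to 855442) that ended 23 bp upstream of a start site. Its fold was 2.09 ± 0.39 (authors' SD). The clock gene tim (2L, 3507723 to 3508123) had 2.00 ± 0.19 over its start site, and Jafrac2, which encodes a peroxiredoxin (3L, 3042228 to 3042628), had 1.97 ± 0.43. CG1815, named Zmynd8 in RefSeq, had 1.88 ± 0.72, and the Myb transcription factor gene had 1.86 ± 0.58. Thus the listed SD was small at tim and large at CG1815. The fold less its SD was 1.81 at tim and 1.16 at CG1815.

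The other regions of the 12 included several enzymes of signalling and metabolism. CanA-14F, a catalytic subunit of the calcium-dependent phosphatase calcineurin, had 1.83 ± 0.69. Cbs, the cystathionine beta-synthase of the transsulfuration pathway, had 1.83 ± 0.32. PhKgamma, the catalytic subunit of phosphorylase kinase, had 1.81 ± 0.37. The cAMP phosphodiesterase gene dnc, a classical learning gene, had 1.81 ± 0.28, and Mgstl, a microsomal glutathione transferase, had 1.79 ± 0.18. The genes CG14223 (1.83 ± 0.45) and CG32066 (1.82 ± 0.60) complete the 12. Of these regions 7 were on X, against 22.8% of all listed regions, whereas among the 134 regions with a fold of at least 1.5, 24.6% were on X. Of the 12 genes 3, tim, CG32066 and PhKgamma, also had a region in the H3K9Ac list, against 441 of all 1319 listed genes.

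Genes of cAMP and calcium signalling upstream of CREB, the transcription factor needed for long-term memory, were listed at 10 of 28 (35.7%), although at 1 of 11 among those with a single H4K16Ac window, against 17.7% of all such genes. In the pathway, calcium acts through calmodulin on kinases and on calcineurin, and cAMP acts on protein kinase A. On the calcium side CanA-14F was joined by CanB, the regulatory calcineurin subunit (1.46 ± 0.18), by Cam, calmodulin itself (1.45 ± 0.14), and by the kinase gene CaMKII (1.65 ± 0.20). On the cAMP side dnc had a second region of 1.26 ± 0.05 at another start site. Pka-C1, the catalytic subunit of protein kinase A, had 1.33 ± 0.23. CrebB-17A, the fly CREB gene itself, had 1.5 ± 0.29 over one start site and 1.47 ± 0.10 beside another. On the calcium side the calcineurin subunit genes Pp2B-14D and CanB2 and the genes sra and Caki had peaks but no listed region. The same held for the adenylate cyclase gene rut, the regulatory subunits Pka-R1 and Pka-R2 and the CREB family gene CrebA. With the H3K9Ac list as the readout, 9 of 31 genes of this group (29.0%) were listed, below the 33.1% of all genes with an H3K9Ac peak. Of the 10 genes listed for H4K16Ac, 2 were in both lists, against 441 of 1319 over all genes. No test compared both marks.

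**Figure D1:**
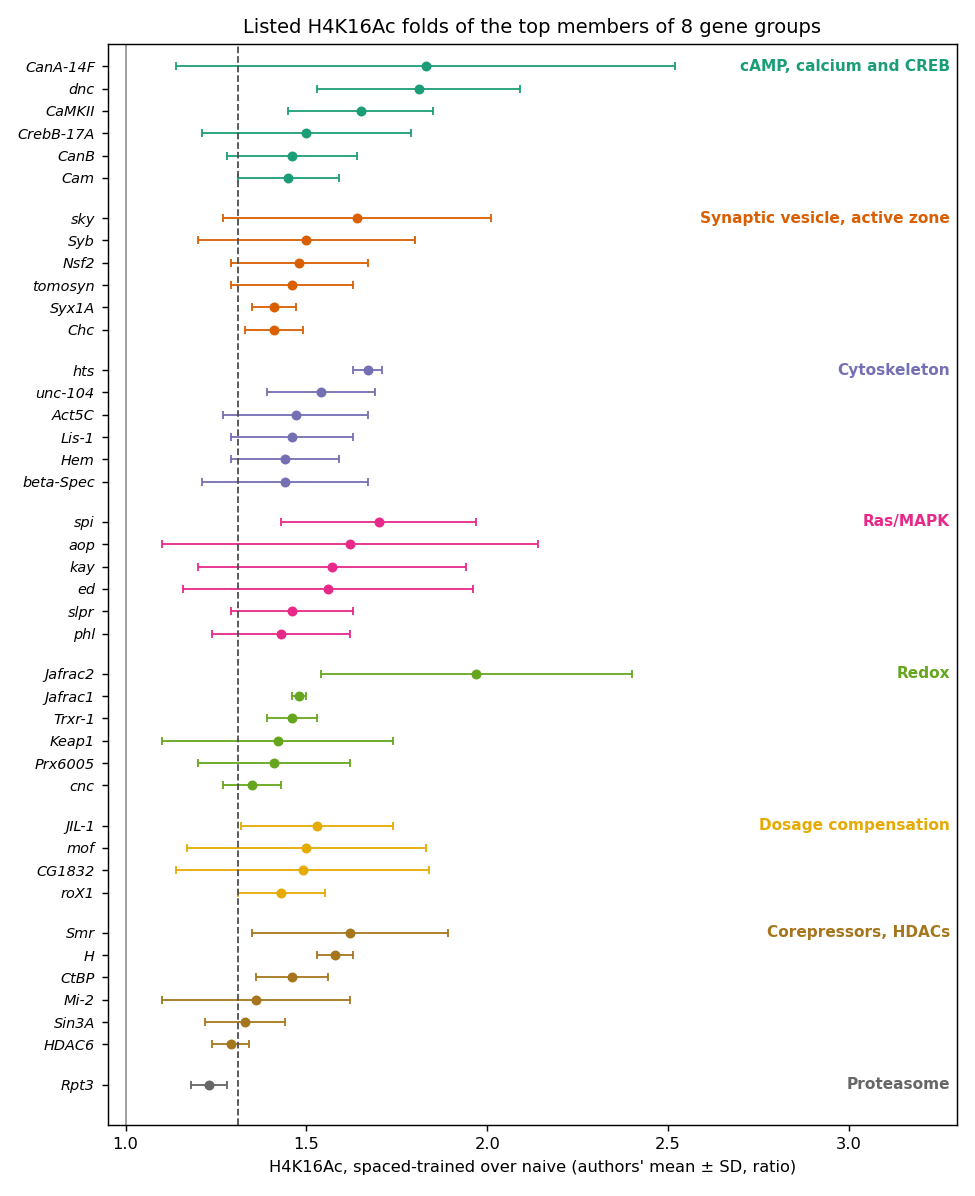
Authors' mean ± SD of the H4K16Ac ratio (spaced-trained over naive, no unit, linear axis) for the largest region of up to 6 genes in each of 8 groups. The dashed line is the median of all 1428 regions, 1.31, and the grey line is no change; CanA-14F at 1.83 ± 0.69 and Jafrac1 at 1.48 ± 0.02 show how much the listed SD differed between genes, and the proteasome is represented by Rpt3 alone.

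Genes of the synapse were listed at 18 of 43 (41.9%, 95% interval 28.4 to 56.7%). They included genes of several steps of the vesicle cycle, although other genes of these steps were not listed. For fusion, Syx1A (syntaxin) had 1.41 ± 0.06, Syb (a synaptobrevin) had 1.5 ± 0.30, and Nsf2, which takes SNARE complexes apart, had 1.48 ± 0.19. Among regulators of fusion, tomosyn had 1.46 ± 0.17 and the priming factor unc-13 had 1.39 ± 0.26. For recovery of vesicles, the clathrin heavy chain gene Chc had 3 listed regions with folds of 1.23 to 1.41, of which 2 did not overlap, and sky, a Rab GTPase activator of synaptic endosomes, had 1.64 ± 0.37. The adhesion molecule gene Nrx-1 (neurexin) had 1.38 ± 0.34. A further synaptobrevin gene, n-syb, and a further NSF gene, comt, had peaks and no listed region. The genes cpx, Syt1, Syn, Rab3, shi, synj and endoA were also among the members with peaks and no listed region. H3K9Ac listed 25 of 48 genes of this group (52.1%, against 33.1% of all genes).

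Genes of the cytoskeleton had the most listed members of any gene list, 31 of 72 (43.1%, 32.3 to 54.6%). Those of the membrane skeleton included hts, adducin, with 2 regions (1.67 ± 0.04 and 1.28 ± 0.07), and beta-Spec, spectrin, also with 2 (1.44 ± 0.23 and 1.3 ± 0.14). The peak table names another gene, CalpA, for the hts region of 1.67. Transport along microtubules was represented by unc-104, the kinesin of synaptic vesicle precursors (1.54 ± 0.15), by the kinesin light chain gene Klc (1.40 ± 0.15) and by the dynein regulator gene Lis-1 (1.46 ± 0.17). Actin regulation was represented by Act5C (1.47 ± 0.20), by Hem of the WAVE complex (1.44 ± 0.15) and by the small GTPase genes Rac1 (1.25 ± 0.12) and Cdc42 (1.27 ± 0.21). Other genes of each of these parts had peaks but no listed region. Among them were the ankyrin genes Ank and Ank2, SCAR and Abi of the WAVE complex, Rho1 and tsr. The kinesin heavy chain gene Khc, the dynein genes Dhc64C and Dlic and tau were not listed either. H3K9Ac listed 29 of 71 genes of this group (40.8%). Of the 31 genes listed for H4K16Ac, 11 were in both lists, against 441 of 1319 over all genes.

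Ras/MAPK signalling had 12 of 29 genes listed (41.4%, 25.5 to 59.3%). The pathway runs from ligand and receptor through Ras, Raf and MAP kinases to transcription factors. The EGF receptor ligand gene spi had 3 regions, with folds of 1.40 ± 0.07, 1.70 ± 0.27 and 1.2 ± 0.03, and a region of 1.56 ± 0.32 named for mir-2b-2 lay beside them. The receptor gene Egfr and Ras85D had peaks only. Below them, phl (Raf) had 1.43 ± 0.19. The gene list also holds the JNK cascade, of which bsk (JNK itself) had 1.25 ± 0.04. Among the transcription factors, kay (Fos) had 3 regions, with folds of 1.57 ± 0.37, 1.24 ± 0.13 and 1.5 ± 0.31, and aop (Yan), a repressor, had 1.62 ± 0.52. In the peak table the kay region of 1.5 is named for fig, and the spi region of 1.40 for mir-2b-2. Inhibitors of the pathway were listed as well, such as sty (sprouty, 1.28 ± 0.14) and Gap1 (1.2 ± 0.04). H3K9Ac listed 16 of 31 genes of this group (51.6%).

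Genes of redox balance were listed at 9 of 21 (42.9%, 24.5 to 63.5%). Peroxiredoxins reduce peroxides, and 3 of them were listed, Jafrac2 (above), Jafrac1 (1.48 ± 0.02) and Prx6005 (1.41 ± 0.21). Prx5 and Prx5037 were not. Trxr-1, thioredoxin reductase, which keeps peroxiredoxins active, had 3 regions with folds of 1.2 to 1.46. The peak table names another gene, sni, for those of 1.41 and 1.46. The regulator pair cnc, the Nrf2 homolog, and its inhibitor Keap1 each had 2 regions, with largest folds of 1.35 ± 0.08 and 1.42 ± 0.32. Both regions of cnc are named for CG13826 in the peak table. H3K9Ac listed 10 of 22 genes of the group (45.5%). The superoxide dismutase gene Sod and the catalase gene Cat had no listed region. Families of detoxifying enzymes were examined after the value of Mgstl had been seen. Among glutathione transferases, cytochromes P450, glucuronosyltransferases and alpha-esterases 19 of 43 genes were listed (44.2%), including Cyp4s3 (1.68 ± 0.33) and GstD1 (1.5 ± 0.18 and 1.38 ± 0.11). Members of these families lie in clusters of similar genes, so reads may have been divided among them uncertainly. The genes of glycogen metabolism, also chosen after PhKgamma had been seen, were listed at 6 of 9, with Glycogenin at 1.54 ± 0.35 and the phosphorylase gene GlyP at 1.51 ± 0.43.

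Some groups had shares below that of all genes. Of 28 proteasome genes with a peak, only Rpt3 was listed (3.57%, 0.633 to 17.7%), at a fold of 1.23 ± 0.05. The other 27, such as the catalytic subunit gene Prosbeta5 and the deubiquitinase gene Rpn11, were not. H3K9Ac listed 13 of the same 28 genes (46.4%, 29.5 to 64.2%), and Rpt3 was not among them. RNA polymerase II and general transcription factors were listed at 4 of 40 (10%, 3.96 to 23.1%), with the largest fold at Ssl1, a subunit of TFIIH (1.58 ± 0.23). Small non-coding RNA genes were listed at 18 of 138 (13%). They averaged 0.95 windows per gene, against 1.5 over all genes. Genes left with no window of their own count as not listed by construction, so this share is not comparable with that of all genes. Among those with exactly 1 window within 500 bp of a start site, 12 of 47 small non-coding RNA genes were listed (25.5%), against 21.2% of all such genes. Their largest folds were 1.65 ± 0.10 for mir-275, 1.56 ± 0.32 for mir-2b-2, 1.55 ± 0.10 for mir-4984 and 1.48 ± 0.41 for let-7-C. Ribosomal protein genes stood near the background, with 16 of 74 cytoplasmic (21.6%) and 10 of 60 mitochondrial (16.7%) members listed.

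**Figure D2:**
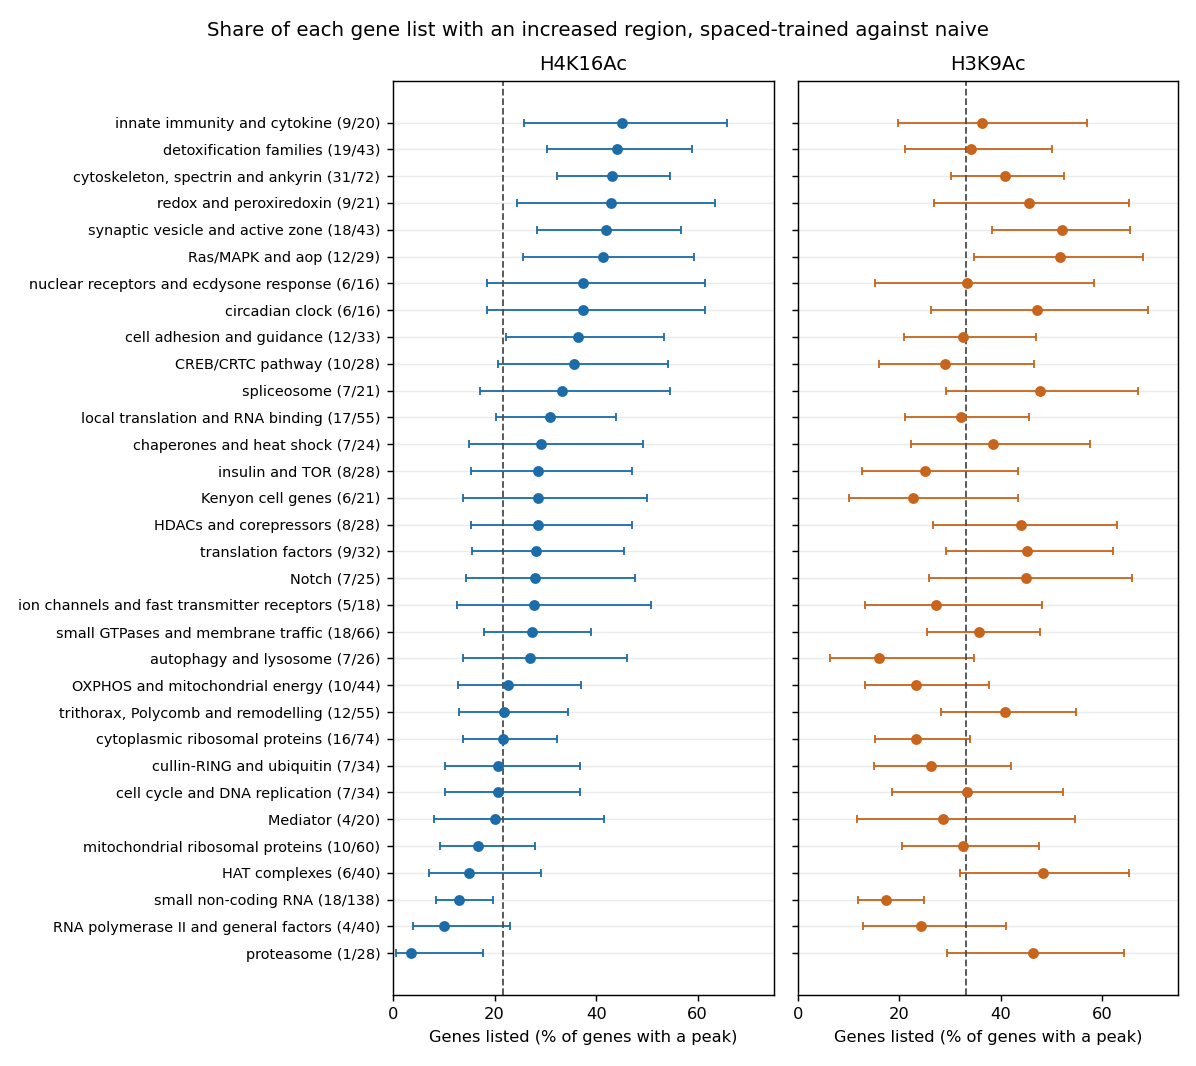
Share of genes with a listed region among genes with a peak (percent, with the 95% Wilson interval) in 32 gene lists of at least 15 genes, for H4K16Ac (left) and H3K9Ac (right). Dashed lines are the shares of all genes, 21.7% and 33.1%, and the counts are those of H4K16Ac; the proteasome lies at 3.57% on the left and 46.4% on the right, and the cytoskeleton lies above the line in both, at 43.1% and 40.8%.

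Genes that write, read and remove acetylation were also examined. Among subunits of acetyltransferase complexes 6 of 40 were listed (15%), whereas H3K9Ac listed 15 of 31 (48.4%). The listed ones included mof, the H4K16 acetyltransferase gene itself (1.5 ± 0.33), dik, the Ada3 subunit of SAGA (1.52 ± 0.25), and E(Pc), a subunit of the Tip60 complex (1.41 ± 0.14). The Tip60 gene and Pcaf, the gene of Gcn5, had H4K16Ac peaks but no listed region. Of the dosage compensation genes 4 of 9 were listed (44.4%, 18.9 to 73.3%). Among those with a single window it was 1 of 5 (20.0%), against 17.7% of all such genes. The 4 listed genes were mof, the X-linked RNA gene roX1 (1.43 ± 0.12), CG1832, which encodes the DNA-binding adaptor Clamp (1.49 ± 0.35), and JIL-1, a histone H3 kinase enriched on the male X (3 regions, 1.44 ± 0.40, 1.44 ± 0.08 and 1.53 ± 0.21). The genes msl-1, msl-3, mle, Sxl and roX2 were not listed. Among deacetylases and corepressors 8 of 28 were listed (28.6%, but 2 of 15 among those with a single window), with Smr, a nuclear receptor corepressor, at 1.62 ± 0.27, H (Hairless), the Notch corepressor, at 1.58 ± 0.05, and CtBP at 1.46 ± 0.10. The deacetylase gene HDAC6 had 1.29 ± 0.05. Trithorax, Polycomb and remodelling genes were at the background, with 12 of 55 listed (21.8%).

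The study followed up 10 genes that it chose from these data and its H3K9Ac and CRTC data, and 8 of them were in the H4K16Ac list. Since they were chosen partly on these libraries, this count is no independent evidence. The folds were 1.69 ± 0.25 and 1.68 ± 0.49 at the ecdysone-induced gene Eip71CD, 1.49 ± 0.14 at CG42388, 1.36 ± 0.17 at Mob2 and 1.32 ± 0.04 at the largest of 3 regions of Hmt4-20, a histone H4 lysine methyltransferase. The other 4 were Smr, aop, beta-Spec and HDAC6. Bx and trx had peaks but were not listed.

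The share of genes listed was higher in genes with more peaks. Of genes with a single H4K16Ac window 17.7% were listed (723 of 4096), of those with 2 windows 31.8%, and of those with 6 or more 47.5% (57 of 120). The mean number of windows per gene was 1.5 over all genes, 2.55 in Ras/MAPK signalling, 2.29 in the CREB pathway and 2.04 in the cytoskeleton, but 1.14 in the proteasome. The shares were therefore also taken over genes with the same number of windows, which was added after seeing the data. Of genes with exactly 1 window within 500 bp of a start site 21.2% were listed (941 of 4442). Among these, 23 of 52 cytoskeletal genes (44.2%), 12 of 31 synaptic genes (38.7%), 12 of 30 detoxifying enzymes (40%), 6 of 19 Ras/MAPK genes (31.6%), 5 of 14 redox genes (35.7%) and 6 of 18 CREB pathway genes (33.3%) were listed. Among RNA polymerase II and general factors 1 of 36 was listed (2.78%), and of the proteasome 0 of 25, where a count of 0 allows a share of up to 12.0%. Of genes with exactly 1 window in all 17.7% were listed. On this base the cytoskeleton had 12 of 35 (34.3%), the synapse 9 of 27 (33.3%), the detoxifying enzymes 10 of 30 (33.3%), Ras/MAPK signalling 3 of 13 (23.1%) and the redox genes 3 of 10. RNA polymerase II and general factors had 1 of 35 (2.86%) and the proteasome 0 of 23, which allows up to 13%. Against this base 12 of 39 gene lists changed side. Of these, 8 lay above the share of all genes before and below 17.7% here. They were the CREB pathway with 1 of 11 (9.09%), ion channels with 1 of 12 (8.33%), Notch signalling with 2 of 17, autophagy and lysosome with 2 of 17, insulin and TOR signalling with 2 of 16, deacetylases and corepressors with 2 of 15 (13.3%), trithorax, Polycomb and remodelling genes with 4 of 30 (13.3%) and local translation with 4 of 28 (14.3%). Small non-coding RNA genes, with 13 of 61 (21.3%), Mediator, cytoplasmic ribosomal protein and glial marker genes moved from below to above. Near start sites small non-coding RNA genes and the photoreceptor, fat body and muscle markers changed side, 2 of 38 lists. The part of the number of windows in the shares was not tested further.

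**Figure D3:**
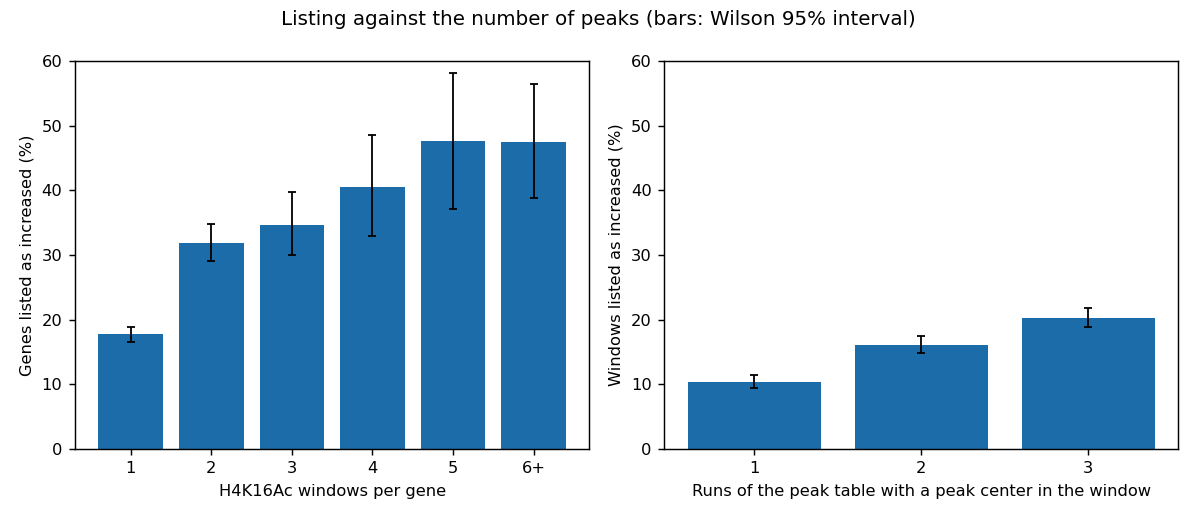
Left, percent of genes listed against the number of H4K16Ac windows of the gene. Right, percent of windows listed against the number of runs of the peak table (of 3) with a peak center inside the window; bars carry 95% Wilson intervals, and the shares run from 17.7% to 47.5% on the left and from 10.3% to 20.3% on the right.

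Most genes (1226 of 1319) had 1 listed region, 79 had 2, and 14 had 3 or more. CG3164 had 4 separate regions within its promoters (1.23 to 1.39), and exba, a translation regulator, had 4 of which 3 did not overlap (1.22 to 1.52). The 3 regions of CG4294 overlapped and mark 1 place. Besides those named above, bun, shn, Hrb27C, Rab5 and 14-3-3zeta had 3 regions each. All 3 regions of Rab5 are named for CG4272 in the peak table. Of all listed regions 35.9% lay within 5000 bp of another (centers), in 188 pairs, 36 triplets and 7 groups of 4. On X, for example, Mgstl and Cbs were neighbours, with regions at 20914020 and 20916166. Along the chromosome the window after a listed one was itself listed in 16.8% of cases (240 of 1425), and that after any other window in 15%.

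By position, 412 of 2075 windows with a 5'UTR were listed (19.9%, 18.2 to 21.6%), and 293 of 1653 upstream windows (17.7%). Windows with coding exons (310 of 2332, 13.3%) and windows in introns only (402 of 2945, 13.7%) had lower shares, and of windows with a 3'UTR 7 of 77. Because the list only holds regions within 500 bp of a start site, the shares depend on how many windows of a class lie near one. The peak table put 5721 windows within 500 bp, of which 20.8% were listed. Among these the order changed. Upstream windows were listed at 29.0% (26.0 to 32.2%), intronic ones at 27.5% (24.7 to 30.5%), those with a 5'UTR at 20.4% and those with coding exons at 15% (13.5 to 16.7%). Another 238 listed regions lay farther away by that table, and 256 listed regions are named for another gene there.

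Folds were also set against the position relative to the start site. Of the listed regions 755 (52.9%) covered a start site, 483 (33.8%) lay downstream and 190 (13.3%) upstream. The median fold was 1.37 upstream and 1.3 at both other positions. A fold of at least 1.5 was reached by 17.9% of upstream regions, 8.08% of those on the start site and 8.07% of those downstream. The largest folds of each class were those of Sox102F (upstream), Jafrac2 (5'UTR), CanA-14F (intron), CG2371 (coding exon, 1.75 ± 0.17) and a 3'UTR region named for snoRNA:Me28S-U1230 (1.43 ± 0.19). A region without a gene in the peak table, named for the GATA cofactor gene ush in the list, had 1.71 ± 0.25.

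**Figure D4:**
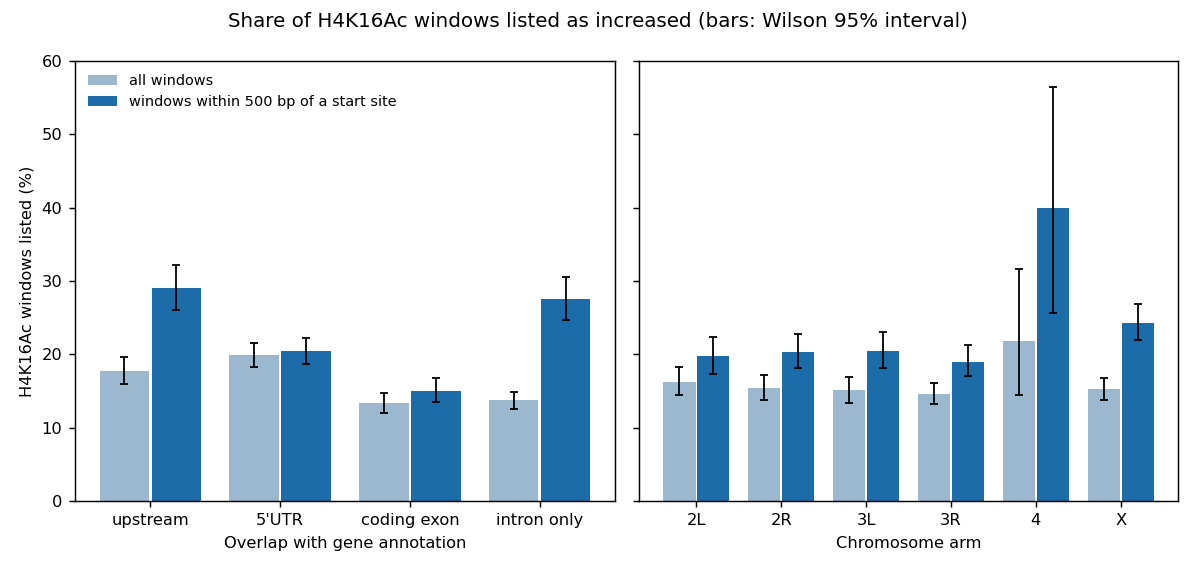
Percent of H4K16Ac windows listed as increased, by overlap with gene annotation (left) and by chromosome arm (right), for all windows (light bars) and windows within 500 bp of a start site (dark bars), each with its 95% Wilson interval. Near start sites, upstream (29.0%) and intronic (27.5%) windows exceed those with coding exons (15%), and X (24.3%) and chromosome 4 (40% of 35 windows) exceed the other arms.

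The X chromosome carried 22.9% of all H4K16Ac windows but 12.8% of the H3K9Ac windows, and its H4K16Ac windows lay farther from start sites, at a median of 435 bp against 134 bp on the autosomes. For H3K9Ac the medians were 81 and 130 bp. Among all H4K16Ac windows, the share listed was 15.2% on X and 15.3% on autosomes. Among windows within 500 bp of a start site, however, 268 of 1102 were listed on X (24.3%, 21.9 to 26.9%) and 922 of 4619 on autosomes (20.0%, 18.8 to 21.1%). For H3K9Ac, of which 24.2% of all windows were listed, these shares were 30.8% on X and 30.6% on autosomes. Both sexes were pooled, so X regions of males and females cannot be told apart.

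The autosomal arms 2L, 2R, 3L and 3R differed little, from 14.6% to 16.2% of all windows and from 19.0% to 20.5% of those near start sites. Their largest folds were at tim (2L), Shroom (2R, an actin-binding protein gene, 1.73 ± 0.28), Jafrac2 (3L) and CG1815 (3R). The small chromosome 4, largely heterochromatic, had 19 of 87 windows listed (21.8%, 14.5 to 31.6%) and 14 of 35 near start sites (40%, 25.6 to 56.4%). Its median fold was 1.37, and besides Sox102F it held CaMKII, Arf102F (1.52 ± 0.39) and toy (1.24 ± 0.10).

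The list itself comes in 2 blocks, each sorted along the genome. In the first block 390 of 392 regions were named for genes at which CREB and CRTC sites lay within 200 bp of each other, and in the second 0 of 1036, so the blocks separate CREB/CRTC-bound genes from the others. The bound block held 320 of the 1319 genes (24.3%). The median fold was 1.33 in the bound and 1.31 in the other block. Of the listed members, 16 of 31 in the cytoskeleton, 7 of 18 at the synapse, 7 of 12 in Ras/MAPK signalling and 7 of 8 among corepressors and deacetylases were in the bound block, but 0 of 16 cytoplasmic and 0 of 10 mitochondrial ribosomal protein genes.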

How the data were processed

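ChIP-seq reads of 3 H4K16Ac libraries each from naive and spaced-trained flies were mapped to dm3 by the authors, who called peaks against input DNA by the PICS and ERD algorithms. The deposited peak table gives a PICS score and its false discovery rate. The deposited list of increased regions gives, per the file headers, a mean fold (ratio of spaced-trained over naive), an SD and a p-value headed t-test. The methods of the study name DESeq2 with adjusted p-values, used by the authors, so the list follows another rule (fold at least 1.2, p up to 0.05, start site within 500 bp). The deposited enrichment factor (ratio) of the CREB and CRTC sites was not used, only their positions. The authors' own folds and p-values were neither retested nor adjusted. The table has 3 genome-wide runs of rows (7443, 9220 and 7489) without sample names, which were not assigned to libraries.

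Peaks were represented by 400 bp windows around their centers. Listed regions were taken first, then each window overlapping none taken (Python 3.11.15, pandas 2.3.3). Distance to a start site was that of the peak table less 200 bp. Genes with a peak or listed region were the background. Gene symbols are those of the files, and RefSeq knew 6047 of 6068. Its gene table (Release 6) served for names only. Named are the 12 largest folds, up to 6 listed members per gene list, genes with at least 3 listed regions, the follow-up genes and the largest fold per class and arm, plus members without a listed region for contrast. Other listed members that are named (Klc, unc-13, Nrx-1, Rac1, Cdc42, bsk, sty, Gap1, Fmr1, orb2, Rel, Dif) were chosen after their values were seen. All regions and gene lists were chosen with earlier results of these data known. Functions were tested on simulated data. Alternatives were the listed p, the listed fold, windows near start sites, uncollapsed peaks, 200 bp windows and the gene name of the peak, and, added after seeing the data, genes with exactly 1 window.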

Additional observations from a re-analysis of the deposited data

How the results depend on the processing

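Of the 1428 regions, 418 had a listed p below 0.01 and 134 a fold of at least 1.5. The share of windows listed, 15.3%, was 20.8% near start sites, 20.0% over all peak rows without collapsing and 11.8% with 200 bp windows. The share of listed regions with a 5'UTR, 28.9%, was 34% near start sites. The share of genes listed, 21.7%, was 24.2% for genes with a window near a start site, 12.3% at a fold of at least 1.3 and 6.74% at a listed p below 0.01, and 17.7% for genes with exactly 1 window (added after seeing the data), as these settings test fewer windows or keep fewer regions. Against the share of all genes in each setting, 3 of 39 gene lists changed side with gene names from the overlapping peak and 2 of 38 near start sites, 10 of 39 at a fold of at least 1.3 and 7 at a listed p below 0.01. Cell adhesion and guidance, with 12 of 33 genes listed, had 0.00% at a listed p below 0.01. The lists of the cytoskeleton, synapse, Ras/MAPK, redox, CREB pathway, proteasome and RNA polymerase II kept their side in these 4 settings, but 12 of 39 lists changed side among genes with exactly 1 window, the CREB pathway among them (1 of 11, 9.09%).

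No paired analysis was possible because the tables hold no values per library, and for the same reason leaving out a replicate was not run. Read numbers of the libraries entered no value given here, and no value in the tables bears on differences between the flies of a group.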

Other observations

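Windows called in more runs of the peak table were listed more often. A window with a peak center from 1 run was listed in 10.3% of cases (365 of 3529), from 2 runs in 16.1% (446 of 2768) and from 3 runs in 20.3% (617 of 3036). The median fold of the listed regions ran the other way, at 1.35, 1.31 and 1.29. The median PICS score was 1.62, 1.81 and 2.19 in these classes of windows. The part of peak strength in the gene groups described above was not tested.

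Genes of local translation, which neurons use to make proteins at synapses, were listed at 17 of 55 (30.9%), but at 4 of 28 (14.3%) among those with a single window, below the 17.7% of all such genes. Hrb27C, an RNA-binding protein gene, had 3 regions with folds of 1.2 to 1.41, Fmr1, the fragile X homolog, had 1.34 ± 0.09, and orb2, a regulator of synaptic translation needed for long-term memory, had 1.25 ± 0.10. Among innate immunity genes 9 of 20 were listed (45.0%), at folds of 1.25 to 1.38, including the transcription factor genes Rel, dl and Dif and, with 2 regions, Stat92E (1.38 ± 0.08). Clock genes were listed at 6 of 16, and besides tim these included the kinase gene dco (1.42 ± 0.08), the kinase subunit gene CkIIbeta (1.48 ± 0.12) and qsm (1.51 ± 0.19), whereas cyc, cry and vri had peaks only.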
